A study of Homo sapiens with 6 samples.

Results

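Imprinted genes were examined as a set of 39 among the 60671 genes of the count files. Rows were chosen by matching their Ensembl identifiers, through GENCODE version 44 on GRCh38, to a list of 39 symbols, and all 39 were found. The list was given by name, with no threshold on the values measured here, though earlier results of these data were known when it was drawn up. The libraries came from K562, a human chronic myeloid leukemia line, here 1 clone that carries Flag-NLS-M.CviPI-Lamin-B1, a doxycycline-inducible fusion of a GpC methyltransferase to a lamina protein. There were 3 DMSO libraries, from separate cultures given 0.1% DMSO as vehicle, and 3 EZH2i libraries, from separate cultures given 1 µM GSK343, an inhibitor of the catalytic activity of EZH2. Treatment lasted 72 h in both groups, and both received 1 µg/mL doxycycline for the final 24 h, so the fusion was induced in every library. The comparison of the groups asks which transcripts changed in level when EZH2 activity was blocked.

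Genomic imprinting restricts the expression of a gene to the copy inherited from one parent. The parental copies are told apart by DNA methylation at imprinting control regions, and in several clusters a long non-coding RNA expressed from one copy silences neighbouring genes on the same chromosome. Polycomb repressive complex 2, of which EZH2 is the catalytic subunit, places H3K27me3 on the silent copy of some imprinted genes, as in the *KCNQ1OT1* domain. Counts of reads per gene, as used here, do not separate the parental copies, and in bulk libraries fewer expressing cells and less RNA per cell cannot be told apart.

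Reads on genes numbered 6327544 to 8987768 per library, and 3 reads, used here as the floor of detection, corresponded to 0.334 to 0.474 counts per 1000000 of these reads. Levels below are in CPM, counts per 1000000 reads on the 12364 tested genes with TMM scaling, a slightly different scale. The floor of 3 reads covers counting error only. The replicates are separate cultures, and in each group every pair of libraries differed by more than counting noise (chi-square per degree of freedom 4.56 to 12.7), so no pair was treated as one library deposited again. Of 10 erythroid and K562 markers, 9 passed the expression filter, all but *HBE1*, and their summed level was 835 to 949.9 CPM in DMSO and 859 to 910.3 CPM in EZH2i. Of these, the fetal globin gene *HBG2* rose (log2FC, the log2 of EZH2i over DMSO, 0.58, edgeR adjusted p = 0.0251). The annotated spans of *HBG2* and *HBE1* overlap on chromosome 11 (5253188 to 5505605 and 5268345 to 5505652). Reads that could belong to either may therefore be missing from their counts. Of 10 markers of T, B, epithelial, fibroblast, liver and endothelial cells, 5 passed, *MS4A1* and *KRT5* had no read, and the summed level was 159 to 169 CPM in DMSO and 173 to 192 CPM in EZH2i. *CD3D* (63.8 ± 5.82 against 88.0 ± 9.57 CPM, SD, n = 3 each) and *COL1A1* (1.57 ± 0.507 against 6.04 ± 1.91 CPM) of that list rose (edgeR adjusted p = 0.0309 and 0.00424), 2 of its 5 tested genes beside 4.26% of all tested genes. *EPCAM* of the same list was lower without overlap, at 77.5 ± 5.48 against 63.9 ± 2.71 CPM (log2FC -0.28, edgeR adjusted p = 0.156). Whether these marker levels bear on the results below was not tested.

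The expression filter, which asks for about 10 reads in at least as many libraries as a group holds, was passed by 20 of the 39 imprinted genes (51.3%), by 17 of the 34 that are protein coding and by 3 of the 5 that are non-coding, beside 53.5% of all 19911 protein-coding genes in the files. Another 12 had no read in any of the 6 libraries (30.8%), all of them protein coding (35.3% of 34, beside 25.2% of all protein-coding genes), and the other 7 had between 1 and 7 reads in their highest library. The genes with no read were *IGF2* and *INS*, which encode growth-promoting and metabolic hormones; *RTL1* and *DIO3* of the *DLK1* cluster; *MAGEL2*, *NDN*, *SNRPN* and *SNURF* of the Prader-Willi cluster; *PEG3* and *ZIM2*; the sarcoglycan gene *SGCE*; and the neuronal proteolipid gene *NNAT*. All 12 belong to the 21 members usually expressed from the paternal copy, of which 7 passed the filter. Of the 8 members usually expressed from the maternal copy, 5 passed and 0 were without a read. For the other 10 members the expressed copy varies between isoforms, tissues or reports, and 8 of them passed.

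**Figure D1:**
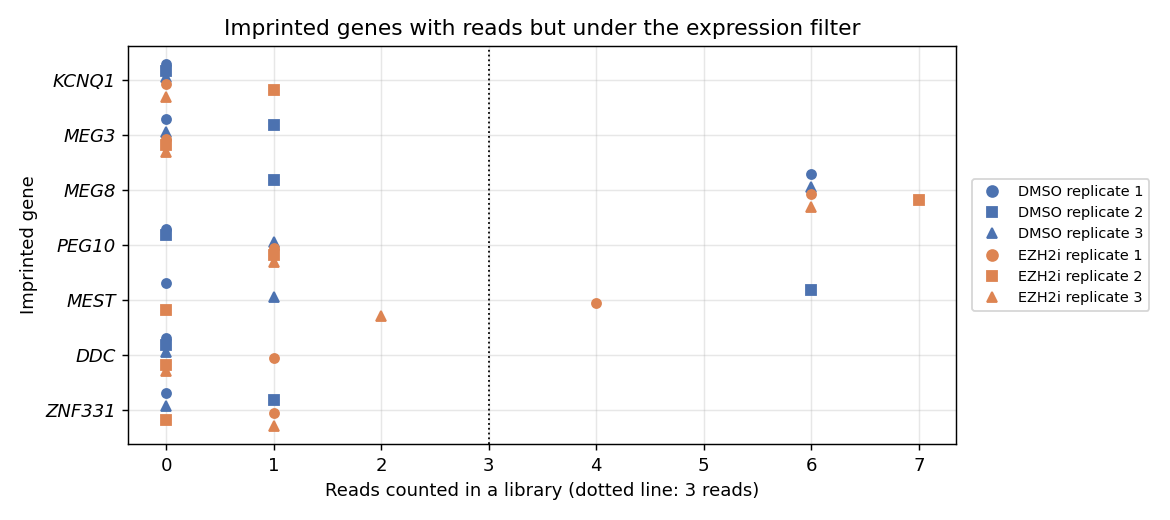
Reads counted in each library (horizontal axis, number of reads) for the 7 imprinted genes that had reads but were under the expression filter, with 1 point per library, colour for treatment and shape for replicate. *MEG8* had 6 or 7 reads in 5 of 6 libraries, *MEST* ranged from 0 to 6, and the other 5 genes had 0 or 1 read in every library.

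Among the 7 genes with reads under the filter, *MEG8*, a non-coding RNA of the *DLK1* cluster, had 6, 1 and 6 reads in DMSO replicates 1 to 3 and 6, 7 and 6 reads in EZH2i replicates 1 to 3. *MEST*, which encodes a hydrolase-like protein, had 0, 6 and 1 reads in DMSO and 4, 0 and 2 in EZH2i, so the groups overlapped for both genes. *KCNQ1*, *MEG3*, *DDC*, *PEG10* and *ZNF331* never exceeded 1 read. *PEG10*, a retrotransposon-derived gene, had 1 read in each EZH2i library and 1 read in 1 DMSO library, under the floor in both groups. In the fit without a filter on low counts, 0 of these 7 genes were called (edgeR adjusted p 0.663 to 0.997). No fold is given for them, since at so few reads it depends on the prior count.

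A count of 0 has different weight for different genes of this set, because several share exons and the files list reads set aside as ambiguous between genes (2.25% to 2.48% of listed reads per library). In the last 500 bases of its canonical transcript, where three-prime reads fall, *SNRPN* shared 64.8% of bases with same-strand exons of *SNHG14* and another annotated gene, and both of these were also at 0 reads. *IGF2* shared 65.8% of these bases with another same-strand gene at 0 reads, and *INS* shared 52.9% with *INS-IGF2*, also at 0. *L3MBTL1*, which passed the filter, shared 97.2% with a same-strand gene at 0 reads. *PEG3* shared 92.0% with exons on the opposite strand, and *MEST* and *COPG2*, whose transcripts run towards each other, shared 45.6% across strands. Over all exonic bases, *SNURF* shared 52.1% on the same strand with *SNRPN* and another gene, and *ZIM2* shared 41.2% with *PEG3*, and both had 0 reads. Neither the strand setting nor the overlap mode of the counting is given in the sources used here, so the counts of these genes are uncertain. For 32 members, *SNURF* and *ZIM2* among them, the last 500 bases were free of exons of other genes in the files.

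Promoter windows are shown for the members whose start regions hold repeated copies of the hexamer TGCCGC, which is bound by ZFP57, the zinc finger protein that protects methylation at imprinting control regions. RefSeq windows of 300 bases on GRCh38.p14, from 250 bases before to 50 after a transcription start, some of them overlapping, were found for 26 of the 39 members and gave 61 distinct windows. No window was at hand for *CD81*, *DLK1*, *IGF2*, *KCNQ1*, *KCNQ1OT1*, *MEG8*, *NNAT*, *PEG10*, *PEG3*, *PHLDA2*, *SGCE*, *SLC22A18* and *ZIM2*. The hexamer was searched on both strands, as TGCCGC and GCGGCA, and overlapping matches were counted separately. Windows that overlap can hold the same match, as the 3 of *MEG3* do, and windows rather than sites were counted. The hexamer was present in 22 of the 61 windows (36.1%), beside 16.7% of all 34943 windows, and at least 2 matches were present in 5 (8.20%), beside 2.75%. These 5 are the windows of *DIRAS3*, of *PLAGL1* with *HYMAI*, of *SNRPN* with *SNURF*, and an overlapping pair at *MEST*. The following windows, written 5′ to 3′ on the strand of the gene with matches in capitals, are 4 of these 5, chosen after their matches were seen, with the *MEST* window of most matches, and 1 of *GRB10*, the tested member with the lowest log2FC in the fit on all libraries. *GRB10* has 5 windows, and the one shown was picked because it holds a match, while the other 4 hold none. No match is held by 4 of 5 windows of *PLAGL1*, 2 of 4 of *SNRPN* and 1 of 5 of *MEST*.
DIRAS3, chr1:68050578-68050877, minus strand: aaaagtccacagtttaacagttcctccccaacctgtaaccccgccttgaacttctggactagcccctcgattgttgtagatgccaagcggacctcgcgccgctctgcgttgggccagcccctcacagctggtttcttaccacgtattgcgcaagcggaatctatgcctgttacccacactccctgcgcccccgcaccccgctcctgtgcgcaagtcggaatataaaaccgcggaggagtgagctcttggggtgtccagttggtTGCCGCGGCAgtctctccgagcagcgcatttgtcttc
PLAGL1 and HYMAI, chr6:144008210-144008509, minus strand: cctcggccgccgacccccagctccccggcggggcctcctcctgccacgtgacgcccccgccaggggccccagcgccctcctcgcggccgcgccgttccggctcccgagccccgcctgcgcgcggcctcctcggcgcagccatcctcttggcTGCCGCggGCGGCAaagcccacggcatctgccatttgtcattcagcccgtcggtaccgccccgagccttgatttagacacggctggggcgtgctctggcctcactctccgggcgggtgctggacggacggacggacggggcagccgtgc
MEST, chr7:130491835-130492134, plus strand: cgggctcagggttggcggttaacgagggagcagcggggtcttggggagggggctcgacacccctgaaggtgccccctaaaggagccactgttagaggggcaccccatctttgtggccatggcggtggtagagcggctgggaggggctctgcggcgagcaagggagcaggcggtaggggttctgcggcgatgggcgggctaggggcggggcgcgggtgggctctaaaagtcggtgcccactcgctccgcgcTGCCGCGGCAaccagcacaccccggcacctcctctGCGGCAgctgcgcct
SNRPN and SNURF, chr15:24954737-24955036, plus strand: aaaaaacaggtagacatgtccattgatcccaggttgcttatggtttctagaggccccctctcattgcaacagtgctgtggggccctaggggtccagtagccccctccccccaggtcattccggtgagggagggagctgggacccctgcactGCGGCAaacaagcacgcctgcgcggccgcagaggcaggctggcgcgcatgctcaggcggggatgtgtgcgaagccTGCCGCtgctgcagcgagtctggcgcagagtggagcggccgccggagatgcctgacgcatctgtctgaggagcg
GRB10, chr7:50793404-50793703, minus strand: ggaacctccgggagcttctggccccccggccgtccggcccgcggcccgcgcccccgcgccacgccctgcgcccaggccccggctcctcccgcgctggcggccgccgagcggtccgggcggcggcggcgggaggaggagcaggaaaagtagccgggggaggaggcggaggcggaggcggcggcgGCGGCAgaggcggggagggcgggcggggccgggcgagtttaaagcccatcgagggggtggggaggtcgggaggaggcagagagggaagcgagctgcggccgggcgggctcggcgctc
The windows of *DIRAS3* and of *PLAGL1* with *HYMAI* belong to genes that passed the filter, whereas those of *MEST* and of *SNRPN* with *SNURF* belong to genes under it, so the hexamer was present on both sides of that division. The number of CG dinucleotides in these windows was 21, 39, 25, 18 and 44 in the order printed, and the median was 18 over the windows of members and 14 over all windows. A match is a sequence of letters and was not measured as a bound site.

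After EZH2 inhibition, 1 of the 20 tested imprinted genes rose and 0 fell at an adjusted p under 0.05 (quasi-likelihood F-test of edgeR, p-values adjusted by Benjamini and Hochberg's method over 12364 tested genes), beside 4.26% of all tested genes, 3.34% higher and 0.922% lower. The share of 1 in 20 is near this background. The gene that rose was *DLK1*. Without a filter on low counts, every gene with a read was tested, and 12 members had none. In that fit 3 members were called, *DLK1*, *H19* and *KCNQ1OT1*, beside 3.54% of the genes then tested. The high value of *KCNQ1OT1* belonged to EZH2i replicate 3, as given below. With DESeq2, other size factors or limma-voom in place of the edgeR fit, *DLK1* was again the 1 member called. At an unadjusted p under 0.05 there were 5 members, *DLK1*, *H19*, *KCNQ1OT1*, *COPG2* and *OSBPL5*, and each of the 5 was higher in EZH2i, beside 10.9% of all tested genes that were higher and 8.21% that were lower at that level (19.1% in all). The log2FC was above 0 for 15 of the 20, with a median of 0.12, and it was above 0 for 6178 of all tested genes (49.97%), with a median of -0.0002. Of the 15, *KCNQ1OT1*, *MKRN3*, *PLAGL1*, *HYMAI*, *DIRAS3* and *NLRP2* fell below 0 in at least 1 fit that left out a library. The DMSO and EZH2i libraries did not overlap for 4 members, all higher in EZH2i, beside 13.3% of all tested genes higher and 11.1% lower in that sense (24.5% in all).

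**Figure D2:**
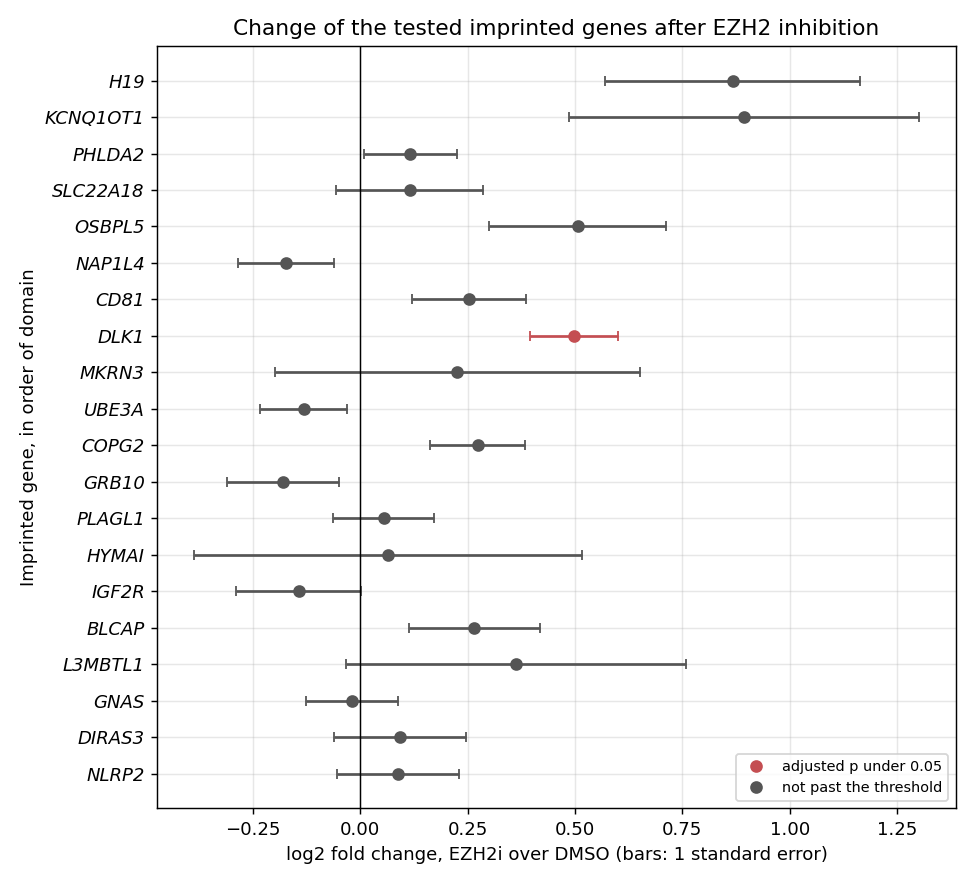
Log2 fold change of EZH2i over DMSO (horizontal axis) for the 20 tested imprinted genes, listed by domain, with bars of 1 standard error from edgeR's fit. *DLK1*, at 0.50, is the 1 gene past the threshold, and *H19* and *KCNQ1OT1* lie farther out at 0.87 and 0.89 with wider bars.

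*DLK1* (ENSG00000185559; chromosome 14 of GRCh38, 100725705 to 100738224, plus strand) encodes a transmembrane protein of the Notch ligand family that restrains differentiation and is expressed from the paternal copy. It was at 1352, 1329 and 1249 CPM in DMSO replicates 1 to 3 and at 1687, 1861 and 2003 CPM in EZH2i replicates 1 to 3. Every EZH2i library was above every DMSO library. The means were 1309.9 ± 54.3 CPM in DMSO and 1850.2 ± 158 CPM in EZH2i (SD, n = 3 each), a log2FC of 0.50 ± 0.103 (SE; edgeR adjusted p = 0.0114), or 1.41-fold. Leaving out 1 library at a time gave 6 fits, in which the log2FC lay between 0.44 and 0.56 and the adjusted p between 0.00125 and 0.0661 (edgeR). The call was lost in 1 of these fits, without DMSO replicate 3 (edgeR adjusted p = 0.0661).

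The rest of the *DLK1* cluster was at or near 0 reads in both groups. *MEG3*, the maternally expressed non-coding RNA downstream of *DLK1*, had 1 read in DMSO replicate 2 and 0 in the other 5 libraries. *RTL1*, a retrotransposon-derived gene, and *DIO3*, which encodes the deiodinase that inactivates thyroid hormone, had no read, and *MEG8* stayed at or below 7 reads. In this clone the paternally expressed gene at one end of the cluster was at 1249 CPM or more in every library while the other members of the cluster did not pass the filter.

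**Figure D3:**
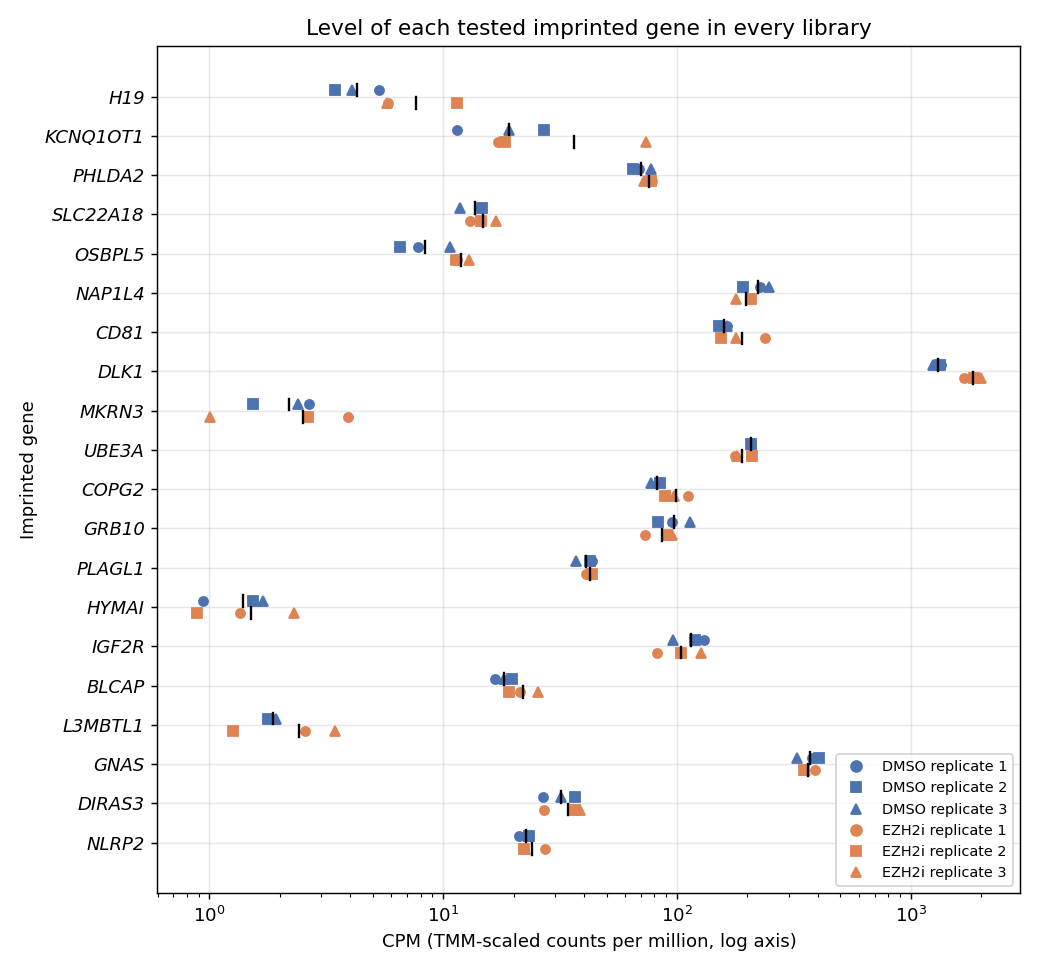
CPM in every library (horizontal log axis) for the 20 tested imprinted genes, with 1 point per library, colour for treatment, shape for replicate and a black line at each group mean. *DLK1* lies between 1249 and 2003 CPM with the EZH2i points to the right of the DMSO points, and for 16 of the genes the points of the groups overlap.

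On chromosome 11p15.5, *H19* (ENSG00000130600; 1995166 to 2004552, minus strand), a maternally expressed non-coding RNA that shares an imprinting control region with *IGF2*, was at 5.32, 3.44 and 4.09 CPM in DMSO and 5.82, 11.5 and 5.73 CPM in EZH2i. The groups did not overlap, and EZH2i replicate 2 stood above the other libraries. The log2FC was 0.87 ± 0.296 (SE; edgeR adjusted p = 0.11), which does not pass the threshold, and it was 0.45 without EZH2i replicate 2. *IGF2* had 0 reads throughout, as given above.

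*KCNQ1OT1* (ENSG00000269821; 2597308 to 2700003, minus strand) is the paternally expressed antisense RNA that starts inside *KCNQ1* and silences genes on either side of it. It was at 11.4, 27.0 and 19.2 CPM in DMSO and 17.2, 18.4 and 73.5 CPM in EZH2i. The high value belonged to 1 library, EZH2i replicate 3, and the other 5 overlapped. The log2FC was 0.89 ± 0.408 (SE; edgeR adjusted p = 0.242), and it turned to -0.12 without EZH2i replicate 3 (edgeR adjusted p = 0.842). In the same library 12.7% of listed reads lay on no annotated gene, beside 7.43% to 8.51% in the other 5, and 2.83% of reads on genes lay on long non-coding RNA genes, beside 2.37% to 2.604%. The part of these shares in the *KCNQ1OT1* value was not tested.

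**Figure D4:**
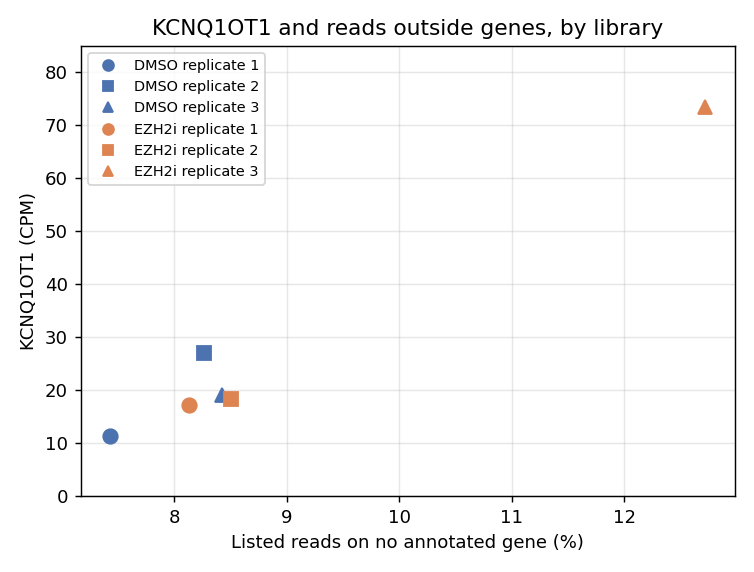
*KCNQ1OT1* level in CPM (vertical axis) against the percentage of listed reads on no annotated gene (horizontal axis) in each of the 6 libraries. EZH2i replicate 3 lies alone at 73.5 CPM and 12.7%, and the other libraries lie between 11.4 and 27.0 CPM and between 7.43% and 8.51%.

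The protein-coding members of the *KCNQ1OT1* domain passed the filter with the exception of *KCNQ1*, and 0 were called. *OSBPL5*, which encodes an oxysterol-binding lipid transporter, was at 7.82, 6.53 and 10.7 CPM in DMSO and 11.5, 11.3 and 12.9 CPM in EZH2i. The groups did not overlap, but the log2FC of 0.51 ± 0.206 (SE; edgeR adjusted p = 0.181) does not pass the threshold. *PHLDA2*, a growth-limiting gene of the placenta, was at 70.2 ± 6.34 CPM in DMSO and 76.1 ± 3.26 CPM in EZH2i (SD, n = 3 each; log2FC 0.12 ± 0.108 SE). *SLC22A18*, an organic cation transporter gene, was at 13.7 ± 1.64 and 14.8 ± 1.97 CPM (SD, n = 3 each; log2FC 0.12 ± 0.171 SE). The tetraspanin gene *CD81* was at 159.5 ± 7.47 and 190.2 ± 43.0 CPM (SD, n = 3 each; log2FC 0.25 ± 0.132 SE), with EZH2i replicate 1 highest at 238 CPM, and the log2FC was 0.0635 without that library. *NAP1L4*, a nucleosome assembly gene, was at 222 ± 27.9 and 197 ± 15.54 CPM (SD, n = 3 each; log2FC -0.17 ± 0.112 SE). *KCNQ1*, the potassium channel gene within which *KCNQ1OT1* starts, had 1 read in 1 library. The groups overlapped for these last 4 tested genes.

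Imprinted genes of this domain outside the 39 were measured in the same libraries. *CDKN1C*, which encodes the CDK inhibitor p57, was at 119, 114 and 109.5 CPM in DMSO and 128, 132 and 136 CPM in EZH2i, without overlap. Its log2FC was 0.21 ± 0.0985 (SE; edgeR adjusted p = 0.246). *ASCL2* (0.59), *TSPAN32* (0.54) and *TSSC4* (0.16) had log2FCs above 0 as well, and with the members 9 of 10 tested genes of the domain were above 0, beside 49.97% of all tested genes, with a median of 0.23, but 0 were called. Of the 9, *KCNQ1OT1* was below 0 without EZH2i replicate 3 as given above. This grouping was made after the values were seen and holds listed imprinted genes alone, so that *CARS1* (log2FC -0.03), which lies in the same interval, is not among them.

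**Figure D5:**
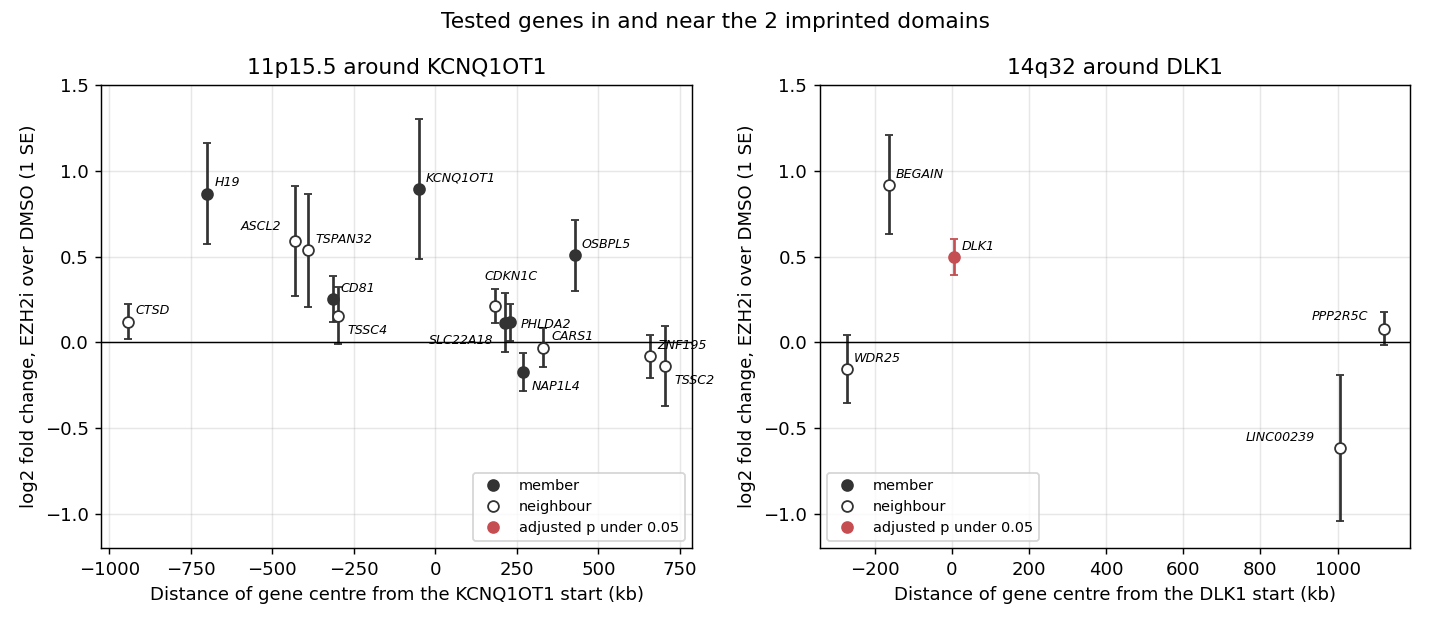
Log2 fold change of EZH2i over DMSO with bars of 1 standard error (vertical axis) against the distance of a gene's centre from the start of *KCNQ1OT1* (left) or *DLK1* (right), in kb, for the tested members (filled) and tested genes within 250 kb of a member (open). *DLK1* at 0.50 is the 1 gene drawn in red, past the threshold, and *BEGAIN*, to its left, is at 0.92 with a wide bar.

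In the Prader-Willi and Angelman cluster of chromosome 15, *UBE3A* and *MKRN3* were the members with enough reads. *UBE3A*, a ubiquitin ligase expressed from the maternal copy in neurons and from both copies in most other cells, was at 208, 208 and 207 CPM in DMSO and 178, 209.8 and 181 CPM in EZH2i. The groups overlapped through EZH2i replicate 2, and the log2FC was -0.13 ± 0.102 (SE; edgeR adjusted p = 0.518). *MKRN3*, a ring finger gene that restrains the onset of puberty, was at 2.20 ± 0.581 and 2.53 ± 1.47 CPM (SD, n = 3 each), and its log2FC of 0.23 turned to -0.22 without EZH2i replicate 1.

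On chromosome 7, *COPG2*, which encodes a subunit of the COPI vesicle coat and whose last bases overlap those of *MEST* on the other strand, was at 83.2, 84.9 and 77.3 CPM in DMSO and 111, 88.9 and 96.7 CPM in EZH2i. The groups did not overlap, and the log2FC of 0.27 ± 0.11 (SE; edgeR adjusted p = 0.176) does not pass the threshold. *GRB10*, an adaptor that dampens insulin receptor signalling, was at 97.5 ± 15.6 and 86.1 ± 11.6 CPM (SD, n = 3 each), with a log2FC of -0.18 ± 0.13 (SE; edgeR adjusted p = 0.484). This was the lowest of the 20 in the fit on all libraries, close to *NAP1L4* at -0.17, and without DMSO replicate 3 it was -0.0496 and no longer the lowest. Without EZH2i replicate 1 (-0.0716) or EZH2i replicate 3 (-0.2551) *GRB10* was not the lowest either. Its neighbour *DDC*, the gene of an amine-synthesizing decarboxylase, had 1 read in 1 library.

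On chromosome 6, *IGF2R*, the receptor that clears insulin-like growth factor 2, was at 131, 119.6 and 95.9 CPM in DMSO and 81.8, 104 and 127 CPM in EZH2i. Within each group the values spread more widely than the means differed (log2FC -0.14 ± 0.145 SE, edgeR adjusted p = 0.645). *PLAGL1*, a zinc finger gene that restrains proliferation, was at 40.9 ± 3.39 and 42.4 ± 1.42 CPM (SD, n = 3 each; log2FC 0.05 ± 0.118 SE). *HYMAI*, the non-coding RNA whose promoter window is also 1 of the 5 windows of *PLAGL1*, was at 1.39 ± 0.403 and 1.51 ± 0.717 CPM (SD, n = 3 each; log2FC 0.06 ± 0.452 SE), and 4.51% of the exonic bases of *PLAGL1* are shared with it.

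On chromosome 20, *GNAS*, which encodes the stimulatory G protein alpha subunit beside imprinted alternative products, was at 377, 406.5 and 325 CPM in DMSO and 389, 350.3 and 354 CPM in EZH2i. These values overlapped, and the log2FC was -0.02 ± 0.107 (SE; edgeR adjusted p = 0.950). Gene counts do not separate the alternative *GNAS* transcripts, whose starts differ and whose three-prime ends are shared. *BLCAP*, an apoptosis-related gene with *NNAT* in its intron, was at 18.2 ± 1.49 and 22.0 ± 3.13 CPM (SD, n = 3 each; log2FC 0.27 ± 0.152 SE). *L3MBTL1*, a chromatin-compacting Polycomb-group relative whose end overlaps another gene as given above, was at 1.86 ± 0.0751 and 2.42 ± 1.10 CPM (SD, n = 3 each; log2FC 0.36 ± 0.396 SE), and its log2FC was 0.031 without EZH2i replicate 3 and 0.68 without EZH2i replicate 2.

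The remaining tested members stand alone in their regions. *DIRAS3*, a RAS-related growth suppressor gene on chromosome 1, was at 31.8 ± 4.97 and 34.1 ± 6.12 CPM (SD, n = 3 each; log2FC 0.09 ± 0.154 SE). *NLRP2*, a maternal-effect gene of the NLR family on chromosome 19, was at 22.6 ± 1.25 and 24.0 ± 2.90 CPM (SD, n = 3 each; log2FC 0.09 ± 0.141 SE). Groups overlapped for both. Both values changed sign when single libraries were left out. For the 15 tested members without an unadjusted p under 0.05, the adjusted p lay between 0.306 and 0.959 (edgeR).

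Of 56 further imprinted genes listed from general knowledge, 52 were found in the files, 18 had no read and 14 were tested. By edgeR's test 0 were called, 2 (*TP73* and *CDKN1C*) had an unadjusted p under 0.05, both higher, and DESeq2 also called 0. Over all tested genes 4.26% were called and 10.9% were higher at an unadjusted p under 0.05, so 2 of 14 is near that share. Of 33 genes that set, keep or erase parental marks, including the core of PRC2, 27 were tested and 1 was called (3.70%, near the 4.26% of all tested genes). At an unadjusted p under 0.05 there were 9, of which 3 were higher and 6 lower, beside 19.1% of all tested genes, 10.9% higher and 8.21% lower. The groups did not overlap for 10, of which 3 were higher and 7 lower, beside 24.5% of all tested genes, 13.3% higher and 11.1% lower. *DNMT1*, the maintenance DNA methyltransferase, was the 1 called, and it fell from 528 ± 48.6 to 385.5 ± 21.7 CPM (SD, n = 3 each; log2FC -0.45, edgeR adjusted p = 0.0190), a call lost without DMSO replicate 2 or EZH2i replicate 2 (edgeR adjusted p = 0.106 and 0.0820). *UHRF1*, which recruits DNMT1 to newly replicated DNA, was at 10.2, 6.29 and 6.92 CPM in DMSO and 4.06, 4.79 and 5.30 CPM in EZH2i, without overlap (log2FC -0.71 ± 0.250 SE, edgeR adjusted p = 0.122). The 3 higher were *TET2* (log2FC 0.33 ± 0.108 SE, edgeR adjusted p = 0.0994), a methylcytosine dioxygenase gene, *JARID2* (0.28, edgeR adjusted p = 0.122), a PRC2 cofactor gene, and *DNMT3A* (0.31, edgeR adjusted p = 0.166), a de novo DNA methyltransferase gene, each without overlap and none past the threshold. The 6 lower were *DNMT1*, *UHRF1*, the PRC2 core gene *EED* (-0.33, edgeR adjusted p = 0.178), the CTCF paralogue *CTCFL* (-0.28, edgeR adjusted p = 0.135), the chromatin remodeller gene *HELLS* (-0.25, edgeR adjusted p = 0.219) and *ARID4A* (-0.29, edgeR adjusted p = 0.116), also without overlap, and of these *DNMT1* alone passed. *EZH2* itself, the other gene lower without overlap, was at 319, 324 and 361 CPM in DMSO and 311, 297 and 270.3 CPM in EZH2i (log2FC -0.19, edgeR adjusted p = 0.306). *ZFP57* had no read in any library.

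Genes around the members were taken as a positional comparison. Within 250 kb of a member lay 629 other genes, of which 58 were tested and 1 was called (1.72%, beside 4.26% of all tested genes). It was *CTSZ*, the gene of a lysosomal cysteine protease, 74.5 kb from *GNAS*, at 53.8, 45.7 and 58.4 CPM in DMSO and 101, 69.7 and 73.8 CPM in EZH2i. All EZH2i libraries were above all DMSO libraries, with a log2FC of 0.63 ± 0.141 (SE; edgeR adjusted p = 0.0177). The call was lost without DMSO replicate 1 (edgeR adjusted p = 0.0729) and without DMSO replicate 2 (edgeR adjusted p = 0.113). The median log2FC of the 58 was 0.01.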

How the data were processed

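Three-prime mRNA libraries were sequenced as single-end reads from 3 DMSO and 3 EZH2i cultures. The authors followed the library kit's pipeline, counted reads per Ensembl gene with HTSeq 0.11.2 and deposited raw counts for each library, without pooling. The submitters' processing notes also list STAR 2.6.0c and GRCh38. The strand setting and overlap mode are not given in the sources used here. A deposited table of the authors' own comparison (mean normalized counts, fold changes, test statistics and p-values) was not used. Between 63.6% and 67.9% of listed reads were on genes, and rows naming no gene entered neither library sizes nor tests.

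The main test was edgeR's (version 4.0.16, R 4.3.3; TMM factors, filterByExpr at its minimum count of 10, then estimateDisp, glmQLFit and glmQLFTest, two-sided, Benjamini-Hochberg adjustment over 12364 genes, threshold 0.05), without a term for replicate number. CPM are counts per 1000000 reads on these genes, scaled by TMM. They were not divided by length, since three-prime sequencing yields reads near transcript ends. Standard errors are the log2 fold change divided by the square root of F. With 3 against 3 libraries an exact permutation test of 1 gene cannot go below 0.1, so none was used. DESeq2 1.42.0 and limma 3.58.1 (voom) were alternatives, as were other size factors, filters, thresholds, a replicate block, other distances and leaving out each replicate. All 3 tools were first tested on simulated counts in which 200 genes changed. Same-numbered libraries did not deviate together (correlations -0.0511, -0.0175 and -0.0170 over 12364 genes).

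The members and lists were chosen with earlier results of these data known. All 39 members are accounted for; of other lists and neighbours, called genes are named, with *EZH2*, *DNMT1* and *UHRF1*. Promoters were to be those of called members and of the highest and lowest log2 fold change, of which windows of *GRB10* were at hand. *CDKN1C*, *ASCL2*, *TSPAN32*, *TSSC4*, *TP73* and *BEGAIN* were named after their values were seen, as were all windows shown, and *GP6*, *SRC*, *TET2*, *JARID2*, *DNMT3A*, *EED*, *CTCFL*, *HELLS*, *ARID4A*, *CARS1*, *EPCAM*, *CD3D*, *COL1A1*, *ZFP57*, *HBG2*, *HBE1*, *MS4A1* and *KRT5*.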

Additional observations from a re-analysis of the deposited data

How the results depend on the processing

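The total of 527 called genes (413 higher, 114 lower) was 928 without a filter on low counts (579 higher, 349 lower), 148 at an adjusted p under 0.01 and 175 when the log2 fold change also had to reach 1 in size. Leaving out single replicates gave 209 to 536, and 213, 209 and 240 without DMSO replicates 1, 2 and 3. It stayed within 1.5 times under DESeq2 (435, 292 higher and 143 lower), RLE or upper-quartile factors, limma-voom, a stricter count filter and the replicate block. Called members numbered 3 without a filter, where *H19* (log2 fold change 0.85, edgeR adjusted p = 0.0304) and *KCNQ1OT1* (0.87, edgeR adjusted p = 3.23e-06) joined *DLK1*, 0 under either stricter threshold, and 0 to 2 when single replicates were left out, with 0 without DMSO replicate 3 and 2 without EZH2i replicate 1, where *KCNQ1OT1* passed (edgeR adjusted p = 0.0487). Called regulators numbered 0 under either stricter threshold and 0 to 2 when single replicates were left out (0 without DMSO or EZH2i replicate 2, and 2 without EZH2i replicate 1, where *JARID2* joined). Called neighbours numbered 3 without a filter, 0 under either stricter threshold and 0 to 2 when single replicates were left out (0 without DMSO replicate 1 or 2, and 2 without EZH2i replicate 2, where *GP6* joined), and 1 within 100 kb or 500 kb. The cause was not tested; a stricter threshold gives fewer by construction. Replicate numbers did not pair the samples. With the replicate block, a paired fit, there were 599 called genes, 1 called member (*DLK1*, adjusted p = 0.0135, edgeR), 1 regulator and 3 neighbours.

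Of 138 log2 fold changes of members under settings that kept all libraries, 135 kept their direction and side of the threshold, 2 passed it (*H19* and *KCNQ1OT1* without a filter) and 1 reversed (*HYMAI*, -0.0051 with limma-voom). Of the 120 without one replicate, 12 changed sign, in members not past the threshold, with ranges of -0.12 to 1.22 for *KCNQ1OT1*, -0.22 to 0.59 for *MKRN3*, -0.0136 to 0.0948 for *PLAGL1*, -0.35 to 0.35 for *HYMAI*, -0.31 to 0.0076 for *IGF2R*, -0.10 to 0.0573 for *GNAS*, -0.0135 to 0.23 for *DIRAS3* and -0.0146 to 0.14 for *NLRP2*. The log2 fold changes of *DLK1* lay between 0.44 and 0.56 across all fits. Values that kept their sign also moved with single libraries, as in *SLC22A18* (0.0121 to 0.20), *PHLDA2* (0.0608 to 0.19), *CD81* (0.0635 to 0.39) and *L3MBTL1* (0.031 to 0.68). The 19 members under the filter have no fold here, and the 3 tested members under 3 CPM have standard errors of 0.40 to 0.45 on the log2 scale.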

Other observations

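Among the tested neighbours, further imprinted genes and regulators, 5 genes had an adjusted p between 0.05 and 0.1 (edgeR), *GP6*, *SRC*, *BEGAIN*, *TP73* and *TET2*, each higher in EZH2i, and *TET2* is described above. These lists, which overlap in part, held 58, 14 and 27 tested genes. The share of all tested genes in that range of adjusted p was not counted, so the number of 5 has no background beside it. *BEGAIN*, a gene of postsynaptic scaffolds 138 kb upstream of *DLK1*, was at 4.07, 2.73 and 4.88 CPM in DMSO and 6.37, 5.67 and 10.2 CPM in EZH2i, without overlap (log2FC 0.92 ± 0.289 SE, edgeR adjusted p = 0.0856). *GP6*, which encodes the platelet collagen receptor and lies 12.6 kb from *NLRP2*, was at 5.005, 4.75 and 4.54 CPM in DMSO and 10.97, 5.30 and 12.03 CPM in EZH2i, without overlap (log2FC 0.98 ± 0.278 SE, edgeR adjusted p = 0.0556). *BEGAIN* and *GP6* passed the threshold without a filter on low counts and with the replicate block. *SRC*, which encodes a tyrosine kinase and lies 86.4 kb from *BLCAP*, was at 5.32, 4.63 and 5.45 CPM in DMSO and 8.53, 10.3 and 7.02 CPM in EZH2i, without overlap (log2FC 0.75 ± 0.228 SE, edgeR adjusted p = 0.0713). *TP73*, a p53-family gene on the list of further imprinted genes, was at 13.9, 15.6 and 18.8 CPM in DMSO and 22.2, 21.8 and 23.5 CPM in EZH2i (log2 fold change 0.47, edgeR adjusted p = 0.0903). Groups did not overlap for 24.5% of all tested genes, and these 5 genes were picked after their values were seen.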
